A study of Homo sapiens with 40 samples.

Results

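The integrated stress response was followed through 10 genes of the ATF4 pathway, ATF4, DDIT3, ATF3, ASNS, PSAT1, CHAC1, TRIB3, PPP1R15A, SESN2 and INHBE, taken by name from the 60664 genes of a count table. Membership is by gene name, and the 10 were chosen with earlier results of these data known. All 10 passed the filter on low counts, which left 22527 genes for testing. Their clearest movement came at day 5 of a drug combination. In SETD2 KO cells ATF3 and PPP1R15A rose while ATF4, TRIB3, CHAC1, ASNS and PSAT1 fell, and in SETD2 WT cells CHAC1 and PSAT1 were higher than in their control and not lower.

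The cells were 786-0, an established human line derived from kidney cancer of the clear cell type, with the SETD2 gene either knocked out (KO) or intact (WT). SETD2 is the histone methyltransferase that places trimethylation on lysine 36 of histone H3. Each line was given 100 nM DAC plus 10 nM BMN (the combination), 100 nM DAC alone or 10 nM BMN alone, and each was sampled at days 5, 16 and 26. The control of each line was untreated cells at day 0. DAC is decitabine, a cytidine analogue that traps DNA methyltransferases, and BMN is BMN673 (talazoparib), an inhibitor of the DNA repair enzyme PARP. That made 20 groups with 2 libraries each, 40 in all, from total RNA of bulk cultures, in which fewer cells expressing a gene and less RNA of it per cell cannot be told apart. No label tells whether the paired libraries of a group came from different cultures, so p-values measure the spread between paired libraries, which may be technical. That spread was taken from all 20 groups together and not only from the groups compared. Untreated cells were sampled at day 0 only, so treatment and time in culture cannot be told apart in any comparison with the control, and all such comparisons in a line share the same 2 control libraries. There was 1 line of each genotype, so the knockout cannot be told apart from other differences between the lines.

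In the integrated stress response, kinases that sense amino acid shortage, unfolded protein, heme lack or double-stranded RNA phosphorylate the translation factor eIF2. Most protein synthesis then slows, while the mRNA of the transcription factor ATF4 is translated more. ATF4 raises genes for amino acid synthesis and transport, genes for its own partners, and genes that turn the response off. Because ATF4 is controlled largely at translation, its mRNA is not a measure of its protein, and only mRNA was measured here.

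The transcription factors were ATF4 itself (ENSG00000128272, chr22:39519695-39522683, plus strand), DDIT3, which encodes the stress factor CHOP (ENSG00000175197, chr12:57516588-57521737, minus strand), and ATF3, an early stress factor that is also a known target of p53 (ENSG00000162772, chr1:212565334-212620777, plus strand). The amino acid genes were ASNS, asparagine synthetase (ENSG00000070669, chr7:97851677-97872542, minus strand), and PSAT1, an aminotransferase of serine synthesis (ENSG00000135069, chr9:78297125-78330093, plus strand). CHAC1 encodes an enzyme that degrades glutathione (ENSG00000128965, chr15:40952962-40956512, plus strand). Among genes known for feedback, TRIB3 encodes a pseudokinase that binds ATF4 and CHOP (ENSG00000101255, chr20:362835-397559, plus strand), and PPP1R15A encodes GADD34, which directs a phosphatase to eIF2 (ENSG00000087074, chr19:48872421-48876058, plus strand). SESN2 encodes a leucine-binding inhibitor of mTORC1 signalling that p53 also induces (ENSG00000130766, chr1:28259518-28282491, plus strand). INHBE encodes a subunit of the secreted factor activin E (ENSG00000139269, chr12:57452323-57459280, plus strand). Coordinates are those of the count table (GRCh38).

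Promoter windows from RefSeq (GRCh38.p14, 250 bases before to 50 after a transcription start) were matched for 9 of the 10 genes, 15 windows in all, and INHBE was not matched. The composite element bound by ATF4 with a C/EBP partner was searched as TTGCATCA, and more loosely as TGATGNAA, whose reverse complement includes TTGCATCA. The cAMP response element was searched as TGACGTCA. Both strands were read. Of 35116 promoter windows in the table, 0.866% held TTGCATCA, 3.62% held TGATGNAA and 1.85% held TGACGTCA. The windows below are shown because they held a match, which is in capitals. That of ATF3 is chr1:212565205-212565234 (plus strand, 191 bases before an ATF3 start). That of CHAC1 is chr15:40953251-40953280 (plus strand, 209 bases before a CHAC1 start and inside the span counted as CHAC1). That of ASNS is chr7:97872458-97872487 (minus strand, 68 bases before an ASNS start and inside the span counted as ASNS). That of PPP1R15A is chr19:48872352-48872381 (plus strand, 58 bases before the PPP1R15A start).
ATF3: aaaggtcaggaTGATGGAAggctgtcatat
CHAC1: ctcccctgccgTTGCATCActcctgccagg
ASNS: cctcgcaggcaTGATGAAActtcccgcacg
PPP1R15A: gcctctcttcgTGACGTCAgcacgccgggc
CHAC1 was the only one of the 9 with the full TTGCATCA, and the first 3 sequences matched the looser form. ATF3 and ASNS each had another window, at another start, that held no match. A match describes these letters only. Binding of ATF4 was not measured, and whether the matched genes moved differently from the others was not tested.

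SETD2 transcript did not tell the lines apart, at 107.61 to 160.49 counts per 1000000 assigned fragments (CPM) in KO libraries and 113.5 to 179.89 CPM in WT libraries, so the counts are no check of the knockout, and KO and WT are the labels' names. Library totals were 17833960 to 22631101 assigned fragments. All 10 markers of a renal carcinoma line were counted in all 40 libraries, summing to 5075 to 8193 CPM. Blood and endothelial markers summed to 0.715 to 6.20 CPM, and the red cell gene HBB was at 0 in all 40. The replicates of WT control stood furthest apart, with a chi-square per degree of freedom of 19.6 between their counts, followed by WT DAC day 26 (17.1) and WT BMN day 26 (11.2), against 1.66 to 7.62 in the other groups. In the WT controls TRIB3 had 119 and 171 CPM, CHAC1 2.62 and 4.71 CPM and SESN2 40.8 and 53.4 CPM. For the 10 genes, calls lost without 1 of these libraries are therefore named or given within counts. Values of other genes are not given without each WT control, and counts over the gene lists only in part. Because the tests share the spread over all groups, p-values against this control do not fully reflect the wider spread of its pair and may be too small. ASNS counts are uncertain, because 49.33% of its exon bases lie on the same strand as the overlapping gene ENSG00000284707 and fragments there were assigned to neither. ASNS had 10 to 86 counts per library, and INHBE had 1 to 137.

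Set per kilobase of exon, the median over the 20 groups was 106 CPM per kb for ATF4, 38.4 for PSAT1, 35.2 for TRIB3, 15.001 for PPP1R15A and 12.0 for SESN2. DDIT3 (6.52 CPM per kb), ATF3 (4.02), CHAC1 (3.31), INHBE (0.512) and ASNS (0.292, an understated level given its shared exons) were lower. All other levels below are CPM scaled by TMM factors. ATF3 was highest in KO cells at day 5 of the combination (47.2 CPM on average) and lowest in WT control (8.55 CPM). ATF4 and TRIB3 were highest in KO control (422 and 213 CPM) and lowest in KO cells at day 5 of the combination (182 and 55.4 CPM). PSAT1 was also lowest there (49.2 CPM), and was highest in KO cells at day 16 of BMN (162 CPM). CHAC1 was highest in KO cells at day 5 of DAC (15.2 CPM). DDIT3, PPP1R15A and INHBE were highest in WT cells at day 16 of the combination (14.2, 90.2 and 6.28 CPM). Most neighbours in these orders did not differ beyond their spread: of the 19 neighbouring pairs of groups per gene, 3 (ASNS) to 8 (PSAT1) had replicates that did not overlap.

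**Figure D1:**
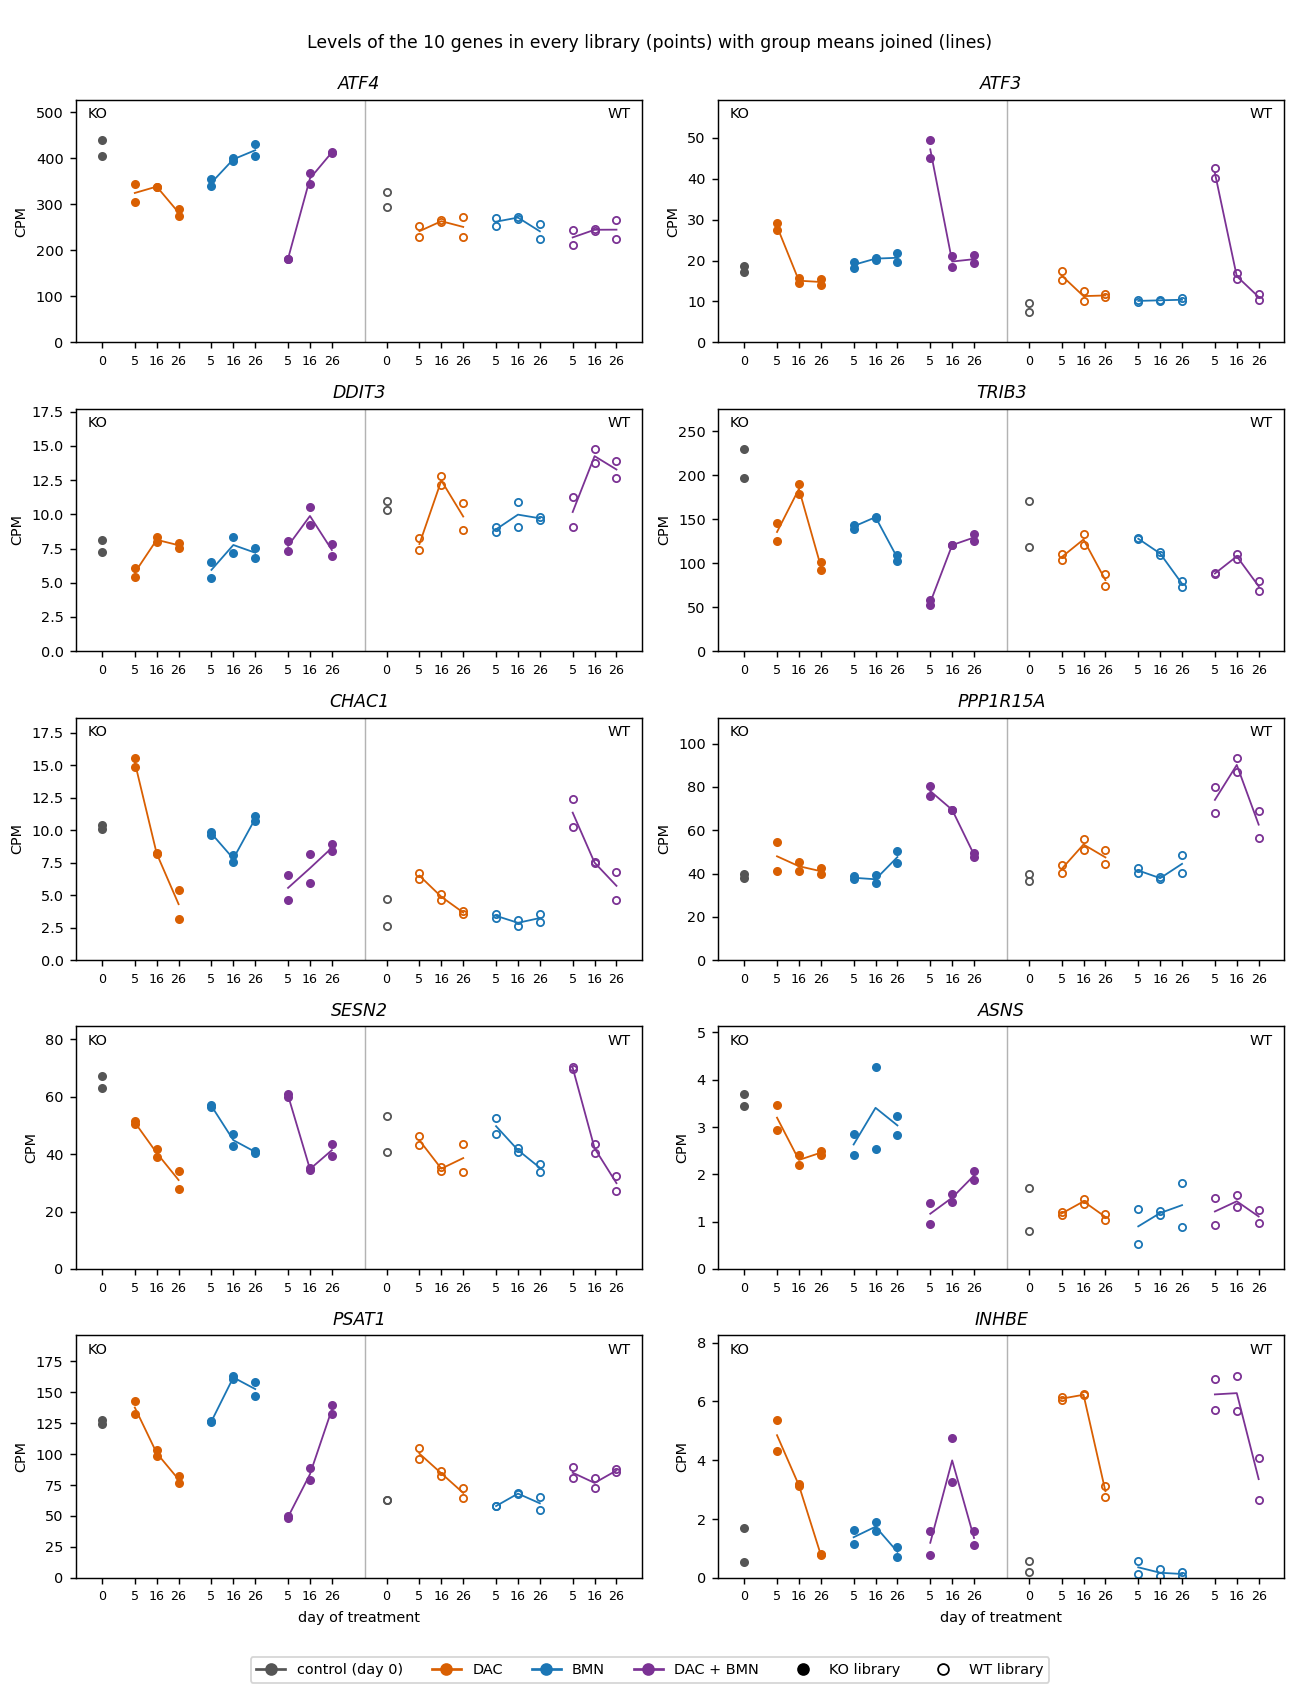
CPM of each gene (vertical axes, linear from 0) in every library, by line, treatment and day (horizontal axes); points are libraries, filled for KO and open for WT, lines join group means, and DAC + BMN is the combination. In KO cells at day 5 of the combination ATF3 stood at 45.0 and 49.4 CPM, its highest level, while ATF4 stood at 182 CPM in both libraries, its lowest.

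Untreated KO cells were compared with untreated WT cells to ask whether the lines differed before any drug. KO cells had more mRNA of 8 of the 10 genes and less of 1 (edgeR's quasi-likelihood test, Benjamini-Hochberg adjusted p below 0.05), where 27.2% of all tested genes were called. By direction, 13.4% of all tested genes were called higher and 13.9% lower. ATF4 had 439 and 406 CPM in KO cells and 294 and 327 CPM in WT cells (log2 0.44 ± 0.08 SE, adjusted p = 6.2e-05). ATF3 had 18.6 and 17.2 CPM in KO cells and 7.41 and 9.69 CPM in WT cells (log2 1.07 ± 0.13, adjusted p = 2.3e-08). Both factors were thus higher in both KO libraries than in either WT library. PSAT1 had 125 and 128 CPM in KO cells and 62.8 and 63.0 CPM in WT cells (log2 1.00 ± 0.08, adjusted p = 3.6e-12). ASNS had 3.45 and 3.69 CPM against 0.806 and 1.71 CPM in WT cells (log2 1.51 ± 0.32, adjusted p = 0.00042), and 2.14 without WT control replicate 2. CHAC1 had 10.4 and 10.1 CPM in KO cells and 2.62 and 4.71 CPM in WT cells (log2 1.48 ± 0.21, adjusted p = 1.1e-06). No library of these groups overlapped, and the KO replicates lay closer together than the WT ones for CHAC1 and ASNS. TRIB3 had 196 and 229.6 CPM in KO cells and 119 and 171 CPM in WT cells (log2 0.56 ± 0.11, adjusted p = 0.00010). These 6 calls held without each of the 4 libraries.

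The other 3 calls before treatment did not hold without every library. SESN2 had 63.1 and 67.2 CPM in untreated KO cells and 40.8 and 53.4 CPM in untreated WT cells (log2 0.47 ± 0.11, adjusted p = 0.0010). DDIT3 was the gene that was lower, at 8.10 and 7.27 CPM in KO cells and 10.99 and 10.3 CPM in WT cells (log2 -0.47 ± 0.14, adjusted p = 0.010). INHBE had 0.540 and 1.71 CPM in KO cells and 0.202 and 0.570 CPM in WT cells (log2 1.53 ± 0.55, adjusted p = 0.037), and its groups overlapped. Leaving out 1 library ended the call on SESN2 (without WT control replicate 1; log2 0.29, adjusted p = 0.083), DDIT3 (without KO control replicate 2 or WT control replicate 1; log2 -0.42 to -0.40, adjusted p = 0.073 to 0.10) and INHBE (without KO control replicate 2 or WT control replicate 1; log2 0.49 to 0.97, adjusted p = 0.31 to 0.72). The INHBE difference was 2.44 without WT control replicate 2 and 2.14 without KO control replicate 1. PPP1R15A had 39.6 and 37.9 CPM in KO cells and 39.7 and 36.4 CPM in WT cells, with a 95% interval of the log2 difference from -0.20 to 0.25. Without WT control replicate 1 the counts were 6 higher and 0 lower, and without replicate 2 they were 8 and 1.

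Day 5 of the combination split the pathway in KO cells. Against their untreated control, 2 of the 10 genes rose and 5 fell, where 49.2% of all tested genes were called. By direction, 27.1% of all tested genes were called higher and 22.2% lower. Among transcription factors, ATF3 had 45.0 and 49.4 CPM in KO cells given the combination and 18.6 and 17.2 CPM in KO control, 2.63-fold higher (log2 1.39 ± 0.11, adjusted p = 1.8e-12). ATF4 had 182 and 182 CPM in treated KO cells and 439 and 406 CPM in KO control, 2.32-fold lower (log2 -1.21 ± 0.08, adjusted p = 4.6e-14). Both treated libraries lay outside the control range, above it for ATF3 and below it for ATF4. DDIT3 had 7.35 and 8.03 CPM in treated KO cells and 8.10 and 7.27 CPM in KO control, which overlapped (95% interval of the log2 difference -0.28 to 0.29).

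Both amino acid genes fell in KO cells at day 5 of the combination. PSAT1 had 49.7 and 48.7 CPM in treated KO cells and 125 and 128 CPM in KO control (log2 -1.36 ± 0.08, adjusted p = 1.1e-15). ASNS had 0.940 and 1.39 CPM in treated KO cells and 3.45 and 3.69 CPM in KO control (log2 -1.61 ± 0.33, adjusted p = 0.00013). The glutathione-degrading CHAC1 had 4.59 and 6.53 CPM in treated KO cells and 10.4 and 10.1 CPM in KO control (log2 -0.88 ± 0.20, adjusted p = 0.00051). In each of these 3 genes both treated libraries were below both controls. The feedback genes parted. TRIB3 had 53.03 and 57.8 CPM in treated KO cells and 196 and 229.6 CPM in KO control, 3.84-fold lower and the largest change of the 10 in this comparison (log2 -1.94 ± 0.11, adjusted p = 4.9e-16). PPP1R15A had 80.5 and 75.7 CPM in treated KO cells and 39.6 and 37.9 CPM in KO control, 2.01-fold higher (log2 1.01 ± 0.11, adjusted p = 2.6e-09). SESN2 had 59.8 and 61.0 CPM in treated KO cells and 63.1 and 67.2 CPM in KO control, a log2 difference of -0.11 with an interval of -0.32 to 0.10. INHBE had 1.60 and 0.781 CPM in treated KO cells and 0.540 and 1.71 CPM in KO control, which overlapped. All 7 calls held without each of the 4 libraries compared.

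WT cells at day 5 of the combination showed 6 genes higher and 2 lower than their control, where 39.5% of all tested genes were called (21.2% higher, 18.2% lower). ATF3 had 40.2 and 42.6 CPM in treated WT cells and 7.41 and 9.69 CPM in WT control, 4.85-fold higher (log2 2.28 ± 0.12, adjusted p = 4.8e-17). ATF4 had 212 and 244 CPM in treated WT cells and 294 and 327 CPM in WT control (log2 -0.45 ± 0.08, adjusted p = 4.3e-05). ATF3 thus rose and ATF4 fell in both lines, and no treated library overlapped the controls. DDIT3 had 9.09 and 11.2 CPM in treated WT cells and 10.99 and 10.3 CPM in WT control, which overlapped (interval of the log2 difference -0.33 to 0.20). PSAT1 had 89.2 and 80.7 CPM in treated WT cells and 62.8 and 63.0 CPM in WT control (log2 0.43 ± 0.08, adjusted p = 4.0e-05). CHAC1 had 10.3 and 12.4 CPM in treated WT cells and 2.62 and 4.71 CPM in WT control (log2 1.63 ± 0.21, adjusted p = 1.0e-07). Both rose in WT cells, and in KO cells both fell. ASNS had 0.924 and 1.51 CPM in treated WT cells and 0.806 and 1.71 CPM in WT control, which overlapped.

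TRIB3 had 87.8 and 88.8 CPM in WT cells at day 5 of the combination and 119 and 171 CPM in WT control (log2 -0.71 ± 0.11, adjusted p = 1.9e-06). PPP1R15A had 67.9 and 80.1 CPM in treated WT cells and 39.7 and 36.4 CPM in WT control (log2 0.96 ± 0.11, adjusted p = 9.5e-09). SESN2 had 70.4 and 69.8 CPM in treated WT cells and 40.8 and 53.4 CPM in WT control (log2 0.57 ± 0.11, adjusted p = 5.1e-05). PPP1R15A and SESN2 were higher, and TRIB3 lower, in both treated libraries than in either control. INHBE had 6.78 and 5.70 CPM in treated WT cells and 0.202 and 0.570 CPM in WT control (log2 4.003 ± 0.43, adjusted p = 1.9e-09), with 4 and 11 counts in the controls. All 8 calls held without each library, each WT control included. Without WT control replicate 1 and then without replicate 2, the log2 difference was 2.10 and 2.48 for ATF3, and 1.27 and 2.11 for CHAC1. On the same terms it was 0.39 and 0.78 for SESN2, -0.95 and -0.43 for TRIB3 and 3.44 and 4.91 for INHBE.

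The combination was set against DAC alone at day 5, a comparison that uses no control library and in which time in culture is matched. In KO cells 3 genes were higher and 6 lower with BMN added (22.3% of all genes called, 10.5% higher and 11.8% lower). In WT cells 4 were higher and 1 lower (12.3% of all genes called, 6.77% higher and 5.52% lower). ATF4 had 182 and 182 CPM in KO cells given the combination and 306 and 343 CPM in those given DAC (log2 -0.83 ± 0.08, adjusted p = 2.2e-09). WT cells had 212 and 244 CPM with the combination and 229 and 254 CPM with DAC, which overlapped. TRIB3 had 53.03 and 57.8 CPM with the combination and 125 and 146 CPM with DAC in KO cells (log2 -1.29 ± 0.11, adjusted p = 1.0e-10). In WT cells TRIB3 differed by -0.28 on the log2 scale, which did not pass. PSAT1 had 49.7 and 48.7 CPM with the combination and 143 and 132 CPM with DAC in KO cells (log2 -1.48 ± 0.08, adjusted p = 1.1e-15). In WT cells PSAT1 had 89.2 and 80.7 CPM with the combination and 105 and 95.6 CPM with DAC (log2 -0.24 ± 0.08, adjusted p = 0.040). All 3 were lower with BMN added in both KO libraries, by more than in WT cells. CHAC1 went opposite ways, with 4.59 and 6.53 CPM with the combination and 14.9 and 15.5 CPM with DAC in KO cells (log2 -1.45 ± 0.20, adjusted p = 1.0e-06). In WT cells it had 10.3 and 12.4 CPM with the combination and 6.27 and 6.72 CPM with DAC (log2 0.80 ± 0.19, adjusted p = 0.0040). Calls carried by single libraries were those on CHAC1 (without WT combination day 5 replicate 1 or WT DAC day 5 replicate 2; log2 0.66 to 0.75, adjusted p = 0.062 to 0.084) and PSAT1 (without WT combination day 5 replicate 1 or WT DAC day 5 replicate 2; log2 -0.17 in each, adjusted p = 0.34 to 0.38).

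ATF3 and PPP1R15A rose in both lines when BMN was added to DAC at day 5. ATF3 had 45.0 and 49.4 CPM with the combination and 27.5 and 29.1 CPM with DAC in KO cells (log2 0.74 ± 0.11, adjusted p = 3.3e-06). In WT cells ATF3 had 40.2 and 42.6 CPM with the combination and 15.1 and 17.5 CPM with DAC (log2 1.34 ± 0.11, adjusted p = 3.6e-11). PPP1R15A rose by a log2 of 0.70 ± 0.11 in KO cells and 0.81 ± 0.11 in WT cells (adjusted p = 9.0e-06 and 1.2e-06). SESN2 rose in WT cells (log2 0.65 ± 0.11, adjusted p = 4.5e-05), and in KO cells its difference was 0.24 (interval 0.03 to 0.46). ASNS fell in KO cells (log2 -1.45 ± 0.33, adjusted p = 0.0016), and in WT cells its difference was 0.04 (interval -0.69 to 0.78). INHBE fell to 1.60 and 0.781 CPM with the combination, against 4.32 and 5.38 CPM with DAC, in KO cells (log2 -2.02 ± 0.36, adjusted p = 8.3e-05; -2.62 without KO combination day 5 replicate 1). In WT cells INHBE was near level, at 6.78 and 5.70 CPM with the combination and 6.04 and 6.16 CPM with DAC (interval of the log2 difference -0.52 to 0.59). DDIT3 passed in KO cells (log2 0.42 ± 0.15, adjusted p = 0.041) and, with a similar difference of 0.38, did not pass in WT cells. Calls that did not hold without single libraries were those on DDIT3 (without any of the 4 libraries compared; log2 0.33 to 0.51, adjusted p = 0.069 to 0.23). In WT cells DDIT3 passed without WT combination day 5 replicate 2 (log2 0.52, adjusted p = 0.041).

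**Figure D2:**
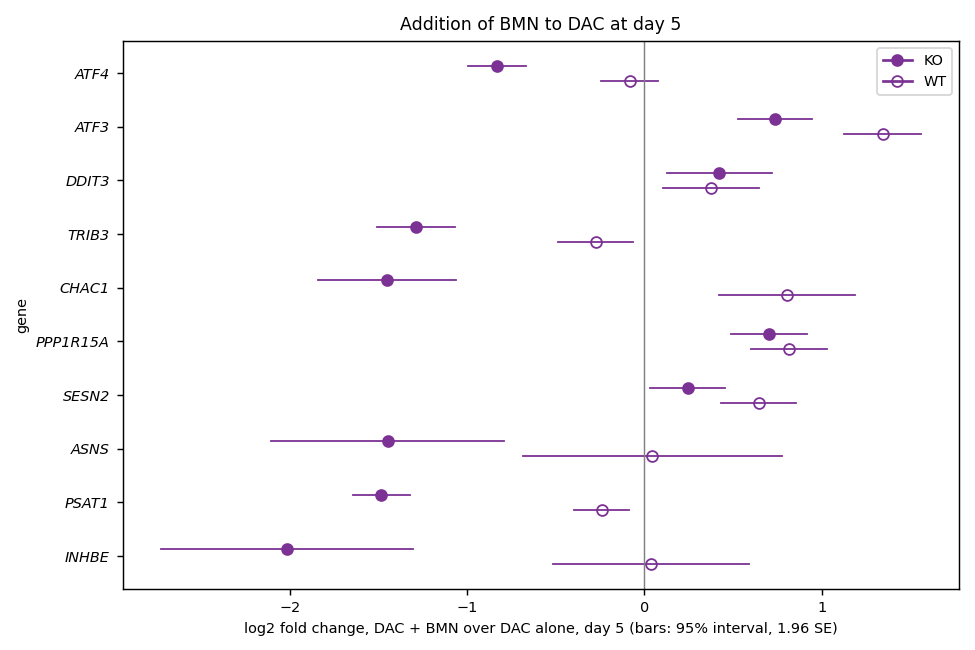
Log2 fold change (horizontal axis) of each gene (vertical axis) for the combination over DAC alone at day 5, filled for KO and open for WT; bars are 95% intervals. ATF4, TRIB3, PSAT1 and CHAC1 lie left of 0 in KO cells, at -0.83, -1.29, -1.48 and -1.45, apart from the WT points, while ATF3 and PPP1R15A lie right of 0 in both lines.

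The difference between the lines was tested directly, as the change from DAC to the combination at day 5 in KO minus that in WT, a contrast added after the values had been seen. It was below 0 for 6 genes and above 0 for none, where 6.85% of all genes were called (2.17% above 0, 4.68% below). For CHAC1 it was -2.26 ± 0.28 on the log2 scale (adjusted p = 5.9e-07), for PSAT1 -1.24 ± 0.11 (adjusted p = 1.3e-09), for TRIB3 -1.01 ± 0.16 (adjusted p = 2.9e-05) and for ATF4 -0.75 ± 0.12 (adjusted p = 3.7e-05). These 4 held without each library. ATF3 (-0.61) and INHBE (-2.05) also passed. The threshold was missed, on leaving out 1 library, by ATF3 (without KO combination day 5 replicate 1, KO DAC day 5 replicate 1, WT combination day 5 replicate 1 or WT DAC day 5 replicate 2; log2 -0.57 to -0.50, adjusted p = 0.056 to 0.12) and INHBE (without KO combination day 5 replicate 2; log2 -1.63, adjusted p = 0.066). The INHBE value was -2.66 without KO combination day 5 replicate 1. For PPP1R15A the difference was -0.11 (interval -0.41 to 0.19), for DDIT3 0.05 (interval -0.36 to 0.45), for SESN2 -0.40 (interval -0.70 to -0.10) and for ASNS -1.49 (interval -2.48 to -0.50), and none of these passed.

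Set against BMN alone at day 5, the combination split the genes in KO cells too, with 3 higher and 5 lower (40.8% of all genes called), while 6 were higher and 1 lower in WT cells (35.5%). ATF4 had 182 and 182 CPM with the combination and 339 and 355 CPM with BMN in KO cells (log2 -0.93 ± 0.08, adjusted p = 4.0e-11). PSAT1 differed by -1.36 ± 0.08 in KO cells and 0.55 ± 0.08 in WT cells (adjusted p = 1.5e-15 and 1.1e-06). TRIB3 was lower in both, by 1.35 in KO cells and by 0.53 in WT cells (adjusted p = 5.9e-12 and 0.00017). ATF3 was higher in both, by 1.32 and 2.03, as was PPP1R15A, by 1.04 and 0.84. CHAC1 was higher in WT cells (log2 1.74 ± 0.21, adjusted p = 3.8e-08) and lower in KO cells (log2 -0.81 ± 0.20, adjusted p = 0.0016). Single libraries decided the calls on CHAC1 (without KO combination day 5 replicate 1; log2 -0.58, adjusted p = 0.068), DDIT3 (without KO BMN day 5 replicate 1, KO combination day 5 replicate 1 or KO combination day 5 replicate 2; log2 0.24 to 0.44, adjusted p = 0.065 to 0.34) and ASNS (without KO BMN day 5 replicate 1 or KO combination day 5 replicate 1; log2 -1.04 to -0.91, adjusted p = 0.053 to 0.094). The combination libraries are the same as in the comparison with DAC.

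The combination was also compared with the sum of the log2 changes of both single drugs, again a contrast added after the values had been seen. A change with time in culture alone would enter the sum once for each drug and the combination only once, and cannot be told apart here from an effect of the drugs together. In KO cells at day 5 it exceeded the sum for 3 genes and fell short of it for 5 (7.91% of all genes called). PSAT1 lay -1.49 ± 0.11 from the sum (adjusted p = 2.0e-11), CHAC1 -1.38 ± 0.28 (adjusted p = 0.0010), TRIB3 -0.70 ± 0.15 (adjusted p = 0.0028) and ATF4 -0.55 ± 0.12 (adjusted p = 0.0020). ATF3 and PPP1R15A exceeded it by 0.66 ± 0.16 and 0.73 ± 0.16 (adjusted p = 0.0066 and 0.0024). Without 1 of its libraries the test no longer called DDIT3 (without KO BMN day 5 replicate 1, KO combination day 5 replicate 2, KO DAC day 5 replicate 2 or KO control replicate 1; log2 0.66 to 0.73, adjusted p = 0.071 to 0.10) and INHBE (without KO BMN day 5 replicate 2, KO combination day 5 replicate 2 or KO control replicate 1; log2 -2.05 to -1.71, adjusted p = 0.069 to 0.078). In WT cells 3 genes exceeded the sum and none fell short (2.74% of all genes called). ATF3 did so by 1.10 ± 0.17 (adjusted p = 7.1e-05) and held without each library. PPP1R15A (0.69) and SESN2 (0.57) passed with all libraries, and lost the call without 3 and 6 of them, one at a time, at adjusted p values up to 0.085 and 0.29.

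DAC alone at day 5 moved 4 genes up and 4 down in KO cells (35.4% of all genes called) and 4 up and 3 down in WT cells (27.8%). INHBE rose most in both. It had 4.32 and 5.38 CPM in KO cells given DAC and 0.540 and 1.71 CPM in KO control (log2 2.11 ± 0.37, adjusted p = 2.0e-05), and the value was 1.502 without KO control replicate 1 and 3.15 without KO control replicate 2. In WT cells INHBE had 6.04 and 6.16 CPM with DAC and 0.202 and 0.570 CPM in control (log2 3.97 ± 0.43, adjusted p = 4.1e-09; 4.87 without WT control replicate 2). ATF3 had 27.5 and 29.1 CPM in KO cells given DAC and 18.6 and 17.2 CPM in KO control (log2 0.66 ± 0.11, adjusted p = 1.8e-05). WT cells had 15.1 and 17.5 CPM with DAC and 7.41 and 9.69 CPM in control (log2 0.93 ± 0.13, adjusted p = 3.7e-07). ATF4 fell in both, by 0.38 in KO cells and by 0.36 in WT cells on the log2 scale (adjusted p = 0.00037 and 0.00089). CHAC1, which fell in KO cells given the combination, had 14.9 and 15.5 CPM in KO cells given DAC alone and 10.4 and 10.1 CPM in KO control (log2 0.57 ± 0.18, adjusted p = 0.015). In WT cells CHAC1 had 6.27 and 6.72 CPM with DAC and 2.62 and 4.71 CPM in control (log2 0.83 ± 0.22, adjusted p = 0.0044). PSAT1 had 105 and 95.6 CPM in WT cells given DAC and 62.8 and 63.0 CPM in control (log2 0.67 ± 0.08, adjusted p = 3.1e-08), and differed by 0.12 in KO cells, which did not pass. TRIB3 fell by 0.65 in KO cells and by 0.44 in WT cells (adjusted p = 8.2e-06 and 0.0019).

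Several of the day 5 DAC calls rested on single libraries. Beside those above, DDIT3 (-0.42) and SESN2 (-0.35) were called as lower and PPP1R15A (0.31) as higher in KO cells, and DDIT3 (-0.45) as lower in WT cells. Resting on single libraries were the calls on CHAC1 (without KO DAC day 5 replicate 1, KO control replicate 1 or KO control replicate 2; log2 0.54 to 0.59, adjusted p = 0.059 to 0.078), DDIT3 (without KO DAC day 5 replicate 2 or KO control replicate 1; log2 -0.34 to -0.33, adjusted p = 0.18 to 0.20), SESN2 (without KO DAC day 5 replicate 2 or KO control replicate 2; log2 -0.34 to -0.31, adjusted p = 0.064 to 0.082) and PPP1R15A (without KO DAC day 5 replicate 1, KO control replicate 1 or KO control replicate 2; log2 0.09 to 0.34, adjusted p = 0.076 to 0.64). Leaving out 1 library ended the call on CHAC1 (without WT control replicate 1; log2 0.46, adjusted p = 0.17), TRIB3 (without WT control replicate 2; log2 -0.15, adjusted p = 0.32) and DDIT3 (without WT DAC day 5 replicate 2 or WT control replicate 1; log2 -0.40 to -0.36, adjusted p = 0.081 to 0.14). Calls on ATF3, ATF4 and INHBE held without each library in both lines, as did TRIB3 in KO cells and PSAT1 in WT cells. The WT call on ATF4 was lost when only its own 4 libraries were fitted (log2 -0.34, adjusted p = 0.067).

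With longer DAC exposure falls made up more of the calls in KO cells. In KO cells 1 gene was higher and 3 lower than control at day 16 (37.7% of all genes called), and none was higher and 6 lower at day 26 (47.2%, with the median of all genes shifted by 0.114 on the log2 scale). In WT cells 4 were higher and 2 lower at day 16 (33.5%), and 3 higher and 3 lower at day 26 (31.9%). CHAC1 in KO cells had 14.9 and 15.5 CPM on day 5, 8.21 and 8.17 CPM on day 16 and 5.42 and 3.19 CPM on day 26 of DAC, the last below both controls (log2 -1.25 ± 0.21, adjusted p = 8.1e-06). PSAT1 in KO cells had 143 and 132 CPM on day 5, 98.1 and 103.5 CPM on day 16 and 82.5 and 76.5 CPM on day 26 (log2 at day 26 -0.67 ± 0.08, adjusted p = 1.8e-08). SESN2 in KO cells had 50.5 and 51.5, then 41.7 and 39.1, then 34.1 and 27.9 CPM at those days (log2 at day 26 -1.07 ± 0.11, adjusted p = 1.2e-09). All 3 were thus lower in both KO libraries at day 26 than at day 5. TRIB3 fell by 1.14 in KO cells and by 0.84 in WT cells at day 26 (adjusted p = 1.7e-10 and 1.6e-07). ATF4 in KO cells was lower by 0.58 at day 26 (adjusted p = 5.1e-07), a call that held without each library. In WT cells PSAT1 was still above control at day 16 (log2 0.42 ± 0.08, adjusted p = 6.3e-05), and PPP1R15A was too (log2 0.49 ± 0.11, adjusted p = 0.00065). ATF3 was called as lower in KO cells at day 26 of DAC, a call that ended without any 1 of the 4 libraries compared (log2 -0.35 to -0.21). In the direct comparison of days in KO cells, 6 genes were lower and 1 higher at day 26 of DAC than at day 5 (35.9% of all genes called). The lower ones were CHAC1 (-1.82), ATF3 (-0.94), PSAT1 (-0.79), SESN2 (-0.72), TRIB3 (-0.49) and INHBE. INHBE went from 4.85 CPM on average at day 5 to 0.784 CPM at day 26. These calls held without each library. DDIT3 was called as higher, a call that did not hold without single libraries. At day 16 in WT cells ATF3 (0.40), ATF4 (-0.24) and SESN2 (-0.43) were called too, and at day 26 ATF3 (0.42), ATF4 (-0.31), PPP1R15A (0.32) and SESN2 (-0.28, with overlapping libraries). Calls that did not hold without single libraries were those on ATF3 (without WT DAC day 16 replicate 2 or WT control replicate 1; log2 0.22 to 0.23, adjusted p = 0.27 to 0.29), ATF4 (without WT DAC day 16 replicate 1, WT DAC day 16 replicate 2 or WT control replicate 2; log2 -0.25 to -0.16, adjusted p = 0.072 to 0.24) and SESN2 (without WT control replicate 2; log2 -0.22, adjusted p = 0.18). The threshold was missed, on leaving out 1 library, by ATF3 (without WT DAC day 26 replicate 1 or WT control replicate 1; log2 0.24 to 0.39, adjusted p = 0.071 to 0.22), ATF4 (without WT DAC day 26 replicate 1 or WT control replicate 2; log2 -0.23 to -0.19, adjusted p = 0.086 to 0.15), PPP1R15A (without WT DAC day 26 replicate 2 or WT control replicate 2; log2 0.16 to 0.26, adjusted p = 0.19 to 0.38) and SESN2 (without WT DAC day 26 replicate 1 or WT control replicate 2; log2 -0.11 to -0.08, adjusted p = 0.56 to 0.72). Without WT control replicate 1, TRIB3 in WT cells passed at day 16 as lower (log2 -0.43, adjusted p = 0.0011), and without replicate 2 CHAC1 passed as higher (log2 0.89, adjusted p = 0.013).

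INHBE separated WT libraries by exposure to DAC. In the 12 WT libraries given DAC, alone or with BMN, it had 2.65 to 6.87 CPM, with a median of 5.87 CPM. In the 8 WT libraries given BMN alone or nothing it had 0.0514 to 0.580 CPM, with a median of 0.204 CPM, so the sets did not overlap. In KO cells the 12 libraries given DAC had 0.772 to 5.38 CPM and the 8 without DAC had 0.540 to 1.89 CPM, which overlapped. At day 16 of DAC, INHBE had 3.11 and 3.18 CPM in KO cells, and at day 26 it had 0.797 and 0.772 CPM, within the range of the KO control. In WT cells it had 6.21 and 6.25 CPM at day 16 and 3.14 and 2.76 CPM at day 26 of DAC, against 0.202 and 0.570 CPM in WT control (log2 at day 26 2.92 ± 0.46, adjusted p = 6.0e-06; 3.83 without WT control replicate 2). The KO call at day 16 (log2 1.49 ± 0.38) was 2.53 without KO control replicate 2. Single libraries decided the calls on INHBE (without KO control replicate 1; log2 0.88, adjusted p = 0.11). The WT value at day 16 (log2 3.999 ± 0.42) was 4.91 without WT control replicate 2. INHBE was also compared between DAC and BMN alone on the same day. It was higher with DAC in WT cells by 4.12, 5.10 and 4.40 at days 5, 16 and 26 (adjusted p = 2.6e-09, 1.8e-10 and 1.9e-07), where 23.1%, 31.7% and 34.2% of all genes were called. Those values rest on few BMN counts: leaving out 1 BMN library moved them to between 3.38 and 6.75. In KO cells the difference was 1.81 at day 5 (adjusted p = 0.00012, 28.8% of all genes called) and did not pass at day 16 (0.85) or day 26 (-0.17), where 39.2% and 40.3% of all genes were called.

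Over all 10 genes, DAC was set against BMN on the same day. In KO cells there were 4 genes higher and 0 lower with DAC at day 5, 1 gene higher and 3 lower at day 16 and 0 genes higher and 5 lower at day 26, against the shares of all genes just given. ATF3 was higher with DAC at day 5, by 0.58 on the log2 scale, and lower at days 16 and 26, at -0.44 and -0.49 (adjusted p = 0.00012, 0.0027 and 0.0011). At day 26 PSAT1 had 82.5 and 76.5 CPM in KO cells given DAC and 158 and 147 CPM in those given BMN (log2 -0.94 ± 0.08, adjusted p = 9.3e-12). CHAC1 (-1.34) and ATF4 (-0.57) were lower with DAC too. These calls held without each library. Without 1 of its libraries the test no longer called CHAC1 (without KO BMN day 5 replicate 1; log2 0.63, adjusted p = 0.055) and PPP1R15A (without KO BMN day 5 replicate 1, KO BMN day 5 replicate 2 or KO DAC day 5 replicate 1; log2 0.12 to 0.36, adjusted p = 0.070 to 0.59). The day 16 calls on ATF4 as lower and TRIB3 as higher with DAC ended without any 1 of the 4 libraries compared (log2 -0.25 to -0.22 and 0.23 to 0.32). Leaving out 1 library ended the call on SESN2 (without KO DAC day 26 replicate 1; log2 -0.26, adjusted p = 0.14). In WT cells no gene was lower with DAC, and 4, 4 and 1 were higher at days 5, 16 and 26. PSAT1 was higher with DAC at day 5 (log2 0.79 ± 0.08) and day 16 (log2 0.31 ± 0.08), and CHAC1 at day 5 (log2 0.93 ± 0.22), without each library. Calls carried by single libraries were those on CHAC1 (without WT BMN day 16 replicate 1 or WT DAC day 16 replicate 2; log2 0.66 to 0.69, adjusted p = 0.078 to 0.11). The KO day 5 total of 4 was 2 without KO BMN day 5 replicate 1. The KO day 16 total of 4 was 2 without KO BMN day 16 replicate 2, KO DAC day 16 replicate 1 or KO DAC day 16 replicate 2. The WT day 26 total of 1 was 2 without WT BMN day 26 replicate 1 or WT DAC day 26 replicate 2.

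BMN alone gave 0 higher and 2 lower genes in KO cells at day 5, 1 and 2 at day 16 and 2 and 2 at day 26, where 11.7%, 25.5% and 33.1% of all genes were called. In WT cells none was called at day 5 or day 16 by edgeR, where 0.186% and 0.684% of all genes were called. At an unadjusted p below 0.05 there was 1 gene at day 5 and 2 at day 16, and DESeq2 called 0 and 1. Without WT control replicate 1, TRIB3 (log2 -0.62, adjusted p = 0.00049) and SESN2 (log2 -0.37, adjusted p = 0.032) were called as lower at day 16. At day 26 of BMN in WT cells 3 genes were lower (23.0% of all genes called). TRIB3 had 79.8 and 73.5 CPM in those cells and 119 and 171 CPM in WT control (log2 -0.92 ± 0.11, adjusted p = 2.6e-07), and its fall held without each library. Calls that did not hold without single libraries were those on ATF4 (without WT BMN day 26 replicate 1 or WT control replicate 2; log2 -0.29 to -0.27, adjusted p = 0.054 to 0.074) and SESN2 (without WT BMN day 26 replicate 1 or WT control replicate 2; log2 -0.36 to -0.21, adjusted p = 0.091 to 0.31). In KO cells TRIB3 was lower at all 3 days, at 144 and 139 CPM on day 5, 152 and 153 CPM on day 16 and 102 and 109.8 CPM on day 26, against 196 and 229.6 CPM in KO control. The log2 differences were -0.59, -0.48 and -1.01 (adjusted p = 0.00034, 0.0012 and 1.1e-08). PSAT1 rose in KO cells, at 161 and 163 CPM on day 16 of BMN against 125 and 128 CPM in control (log2 0.36 ± 0.08, adjusted p = 0.00098). SESN2 fell in KO cells by 0.54 at day 16 and by 0.68 at day 26 (adjusted p = 0.00056 and 1.1e-05). The threshold was missed, on leaving out 1 library, by ATF4 (without KO BMN day 5 replicate 1, KO BMN day 5 replicate 2 or KO control replicate 1; log2 -0.32 to -0.23, adjusted p = 0.065 to 0.19). Single libraries decided the calls on PSAT1 (without KO BMN day 26 replicate 1; log2 0.22, adjusted p = 0.10) and PPP1R15A (without KO BMN day 26 replicate 2, KO control replicate 1 or KO control replicate 2; log2 0.22 to 0.33, adjusted p = 0.084 to 0.26).

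The day 5 pattern of the combination in KO cells did not last to day 26. Between these days 4 genes were higher and 3 lower at the later one (42.7% of all genes called). ATF4 had 412 and 414 CPM at day 26 and 182 and 182 CPM at day 5 (log2 1.18 ± 0.08, adjusted p = 2.0e-13). PSAT1 had 132 and 139.7 CPM at day 26 and 49.7 and 48.7 CPM at day 5 (log2 1.47 ± 0.08, adjusted p = 4.1e-16). TRIB3 had 125 and 133 CPM at day 26 and 53.03 and 57.8 CPM at day 5 (log2 1.22 ± 0.11, adjusted p = 8.4e-11). All 3 were higher in both later libraries, and ATF4 and PSAT1 were back within reach of the KO control, from which they differed at day 26 by -0.03 (interval -0.19 to 0.13) and 0.11 (interval -0.04 to 0.26). ATF3 had 21.3 and 19.3 CPM at day 26 and 45.0 and 49.4 CPM at day 5 (log2 -1.21 ± 0.11, adjusted p = 6.2e-11). PPP1R15A had 49.5 and 47.9 CPM at day 26 and 80.5 and 75.7 CPM at day 5 (log2 -0.68 ± 0.11, adjusted p = 4.3e-06). SESN2 also fell (log2 -0.55 ± 0.11, adjusted p = 0.00011). Without 1 of its libraries the test no longer called CHAC1 (without KO combination day 26 replicate 2 or KO combination day 5 replicate 1; log2 0.40 to 0.59, adjusted p = 0.069 to 0.21). Day 16 lay between for ATF4 (367 and 345 CPM), PSAT1 (79.0 and 88.5 CPM) and TRIB3 (121 and 120.5 CPM).

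Against their control, KO cells had 3 genes higher and 6 lower at day 16 of the combination (42.6% of all genes called), and 1 higher and 3 lower at day 26 (34.7%). PPP1R15A had 69.5 and 69.4 CPM at day 16 and 39.6 and 37.9 CPM in KO control (log2 0.84 ± 0.11, adjusted p = 1.6e-07). ASNS had 1.42 and 1.59 CPM at day 16 and 3.45 and 3.69 CPM in control (log2 -1.24 ± 0.32, adjusted p = 0.0018). PSAT1, TRIB3 and SESN2 were lower at day 16 by 0.59, 0.82 and 0.91 on the log2 scale. INHBE was higher at day 16 (log2 1.83 ± 0.38, adjusted p = 0.00016; 1.23 without KO control replicate 1 and 2.88 without KO control replicate 2). TRIB3 and SESN2 were still lower at day 26, by 0.72 and 0.66 (adjusted p = 3.0e-06 and 1.7e-05). Resting on single libraries were the calls on ATF4 (without KO combination day 16 replicate 2 or KO control replicate 1; log2 -0.20 to -0.19, adjusted p = 0.13 to 0.14), DDIT3 (without KO combination day 16 replicate 1 or KO control replicate 2; log2 0.26 to 0.29, adjusted p = 0.21 to 0.26) and CHAC1 (without KO combination day 16 replicate 1, KO control replicate 1 or KO control replicate 2; log2 -0.56 to -0.32, adjusted p = 0.074 to 0.31). The day 26 calls on ASNS as lower and PPP1R15A as higher ended without any 1 of the 4 libraries compared (log2 -0.92 to -0.79 and 0.30 to 0.36). Those on the same genes at day 16 held without each library.

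WT cells at day 16 of the combination had 6 genes higher and 2 lower than control (43.0% of all genes called), and at day 26 6 were higher and 3 lower (41.1%). The day 26 count was 3 higher and 3 lower without WT combination day 26 replicate 2, and again without WT control replicate 1. PPP1R15A had 87.0 and 93.4 CPM at day 16 and 68.9 and 56.3 CPM at day 26, against 39.7 and 36.4 CPM in WT control (log2 1.25 ± 0.11 and 0.72 ± 0.11). CHAC1 had 7.53 and 7.47 CPM at day 16, above both controls (log2 1.03 ± 0.22, adjusted p = 0.00021). ATF3 had 40.2 and 42.6 CPM on day 5, 16.9 and 15.5 CPM on day 16 and 11.7 and 10.5 CPM on day 26 (day 26 against day 5, log2 -1.90 ± 0.12, adjusted p = 1.1e-14). Its level at day 26 was thus close to the control, and the remaining log2 difference was 0.38. DDIT3 had 14.8 and 13.7 CPM at day 16, the highest of any group, and 10.99 and 10.3 CPM in WT control (log2 0.42 ± 0.13, adjusted p = 0.0091). SESN2, which was higher at day 5, was lower at day 26, with 32.5 and 27.2 CPM against 40.8 and 53.4 CPM in WT control (log2 -0.65 ± 0.11, adjusted p = 1.2e-05). Between day 26 and day 5 in WT cells 1 gene was higher and 4 lower (35.9% of all genes called), and the falls in ATF3, CHAC1 (-0.98) and SESN2 (-1.23) held without each library. INHBE was 4.01 above control at day 16 and 3.11 at day 26, or 4.92 and 4.01 without WT control replicate 2. Calls carried by single libraries were those on DDIT3 (without WT combination day 16 replicate 2 or WT control replicate 2; log2 0.37 in each, adjusted p = 0.071 to 0.077), TRIB3 (without WT control replicate 2; log2 -0.14, adjusted p = 0.31) and PSAT1 (without WT combination day 16 replicate 2; log2 0.21, adjusted p = 0.093). Calls that did not hold without single libraries were those on ATF3 (without WT combination day 26 replicate 2 or WT control replicate 1; log2 0.20 to 0.29, adjusted p = 0.15 to 0.31), ATF4 (without WT combination day 26 replicate 1; log2 -0.23, adjusted p = 0.065) and CHAC1 (without WT combination day 26 replicate 2 or WT control replicate 1; log2 0.28 to 0.34, adjusted p = 0.35 to 0.38). DDIT3 at day 26 (log2 0.32) lost its call without any 1 of the 4 libraries compared. Without WT control replicate 1, SESN2 passed as lower at day 16 (log2 -0.35, adjusted p = 0.018).

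**Figure D3:**
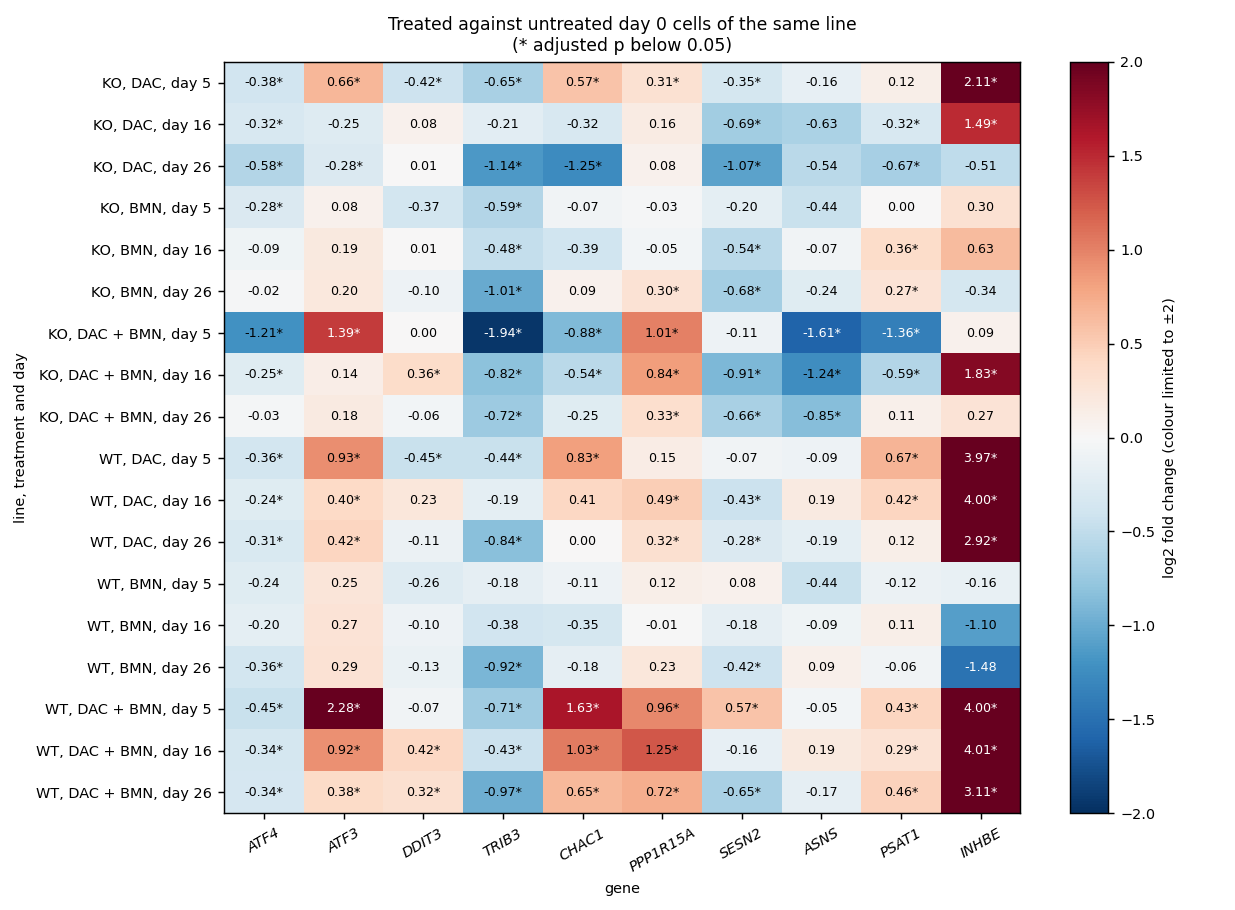
Log2 fold change against untreated day 0 cells of the same line, by gene (columns) and by line, treatment and day (rows, DAC + BMN being the combination); colour is limited to ±2 and an asterisk marks an adjusted p below 0.05. Day 5 of the combination shows CHAC1 at -0.88 in KO cells and 1.63 in WT cells, and PSAT1 at -1.36 and 0.43, while WT cells given BMN have no asterisk at days 5 and 16.

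By day 26 the difference between the combination and DAC in KO cells had the opposite sign to day 5 for several genes. There 6 were higher and none lower with the combination (23.9% of all genes called). ATF4 had 412 and 414 CPM with the combination and 289 and 275 CPM with DAC (log2 0.55 ± 0.08, adjusted p = 5.5e-06). PSAT1 had 132 and 139.7 CPM with the combination and 82.5 and 76.5 CPM with DAC (log2 0.78 ± 0.08, adjusted p = 4.7e-09). Both held without each library. CHAC1 (1.01), ATF3 (0.46), TRIB3 (0.42) and SESN2 (0.42) also passed. The threshold was missed, on leaving out 1 library, by CHAC1 (without KO DAC day 26 replicate 1; log2 0.67, adjusted p = 0.052), ATF3 (without KO combination day 26 replicate 1 or KO DAC day 26 replicate 1; log2 0.39 to 0.40, adjusted p = 0.060 to 0.063), TRIB3 (without KO combination day 26 replicate 2 or KO DAC day 26 replicate 1; log2 0.35 to 0.38, adjusted p = 0.052 to 0.073) and SESN2 (without KO combination day 26 replicate 2 or KO DAC day 26 replicate 1; log2 0.28 to 0.34, adjusted p = 0.094 to 0.17). Set against BMN alone at day 26, the combination in KO cells differed in none of the 10 genes by edgeR, where 13.7% of all genes were called. Of the 10, 2 had an unadjusted p below 0.05 and DESeq2 called 0. The intervals of the log2 differences reached from -0.18 to 0.14 for ATF4 and -0.32 to -0.01 for PSAT1 to -0.25 to 1.49 for INHBE.

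In KO minus WT, the change from DAC to the combination at day 26 was above 0 for 5 genes and below 0 for none (21.1% of all genes called). It was 0.79 ± 0.16 for SESN2, 0.58 ± 0.12 for ATF4 and 0.44 ± 0.11 for PSAT1 (adjusted p = 0.00037, 0.00032 and 0.0041), and these 3 held without each library, those of WT DAC day 26 included. TRIB3 (0.55) and ATF3 (0.51) passed as well. Single libraries decided the calls on TRIB3 (without KO DAC day 26 replicate 1, WT combination day 26 replicate 1 or WT DAC day 26 replicate 2; log2 0.37 to 0.48, adjusted p = 0.054 to 0.13) and ATF3 (without KO combination day 26 replicate 1, KO DAC day 26 replicate 1, WT combination day 26 replicate 1, WT DAC day 26 replicate 1 or WT DAC day 26 replicate 2; log2 0.43 to 0.50, adjusted p = 0.066 to 0.12). ATF4, TRIB3 and PSAT1 thus had differences between the lines below 0 at day 5 and above 0 at day 26. Without WT DAC day 26 replicate 2, DDIT3 also passed, below 0 (log2 -0.69, adjusted p = 0.019). At day 16 none of the 10 passed this test by edgeR, where 6.65% of all genes were called, with 3 at an unadjusted p below 0.05 and 1 called by DESeq2. CHAC1 passed without KO combination day 16 replicate 2 (log2 -1.08, adjusted p = 0.046). Within each line at day 16 the combination against DAC gave 2 genes higher and 2 lower in KO cells and 3 genes higher and 0 lower in WT cells. The KO total of 4 was 2 without KO combination day 16 replicate 1 or KO DAC day 16 replicate 1. The WT total of 3 was 1 without WT combination day 16 replicate 2 or WT DAC day 16 replicate 1. PPP1R15A was higher with the combination, by 0.68 in KO cells and 0.76 in WT cells (adjusted p = 3.3e-05 and 2.4e-06), where 16.3% and 12.2% of all genes were called. TRIB3 was lower in KO cells there (log2 -0.61 ± 0.11, adjusted p = 9.6e-05).

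Set against the sum of the single drugs in KO cells at day 26, the combination lay above the sum for 5 genes and below it for none (26.9% of all genes called). TRIB3 lay 1.43 ± 0.15 above it (adjusted p = 1.9e-08), SESN2 1.09 ± 0.16 (adjusted p = 3.0e-06), ATF4 0.57 ± 0.12 (adjusted p = 0.00036) and PSAT1 0.50 ± 0.11 (adjusted p = 0.00078), and these held without each library. For TRIB3 and SESN2 the combination itself was below control at day 26, and the single drugs summed to a larger fall. TRIB3 was below control at day 26 in every KO group, by 1.14 with DAC, by 1.01 with BMN and by 0.72 with the combination. SESN2 was too, at 31.0 CPM on average with DAC, 40.7 with BMN and 41.4 with the combination, against 65.1 in KO control. The limit given for time in culture thus applies to both genes. Without 1 of its libraries the test no longer called CHAC1 (without KO DAC day 26 replicate 1; log2 0.59, adjusted p = 0.17).

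Other comparisons at days 16 and 26 are given as counts, each followed by the number called when 1 library was left out. With the combination against BMN at day 16 there were 2 genes higher and 4 lower in KO cells (31.9% of all genes called; 3 to 5 called with a library left out) and 5 genes higher and 0 lower in WT cells (39.9%; 4 to 5). PSAT1 was lower in KO cells there (log2 -0.95 ± 0.08) and CHAC1 higher in WT cells (log2 1.39 ± 0.23), both without each library. In WT cells at day 26 there were 5 genes higher and 0 lower than with BMN (40.6%; 4 to 5), and 4 genes higher and 1 lower than with DAC (12.2%; 2 to 4). PSAT1 was higher in both, by 0.53 and 0.34 on the log2 scale, also without each library, though the call against DAC was lost when only its own 4 libraries were fitted (log2 0.34, adjusted p = 0.17). At day 26 against day 5, DAC gave 0 genes higher and 5 lower in WT cells (21.7%; 2 to 6), with CHAC1 at -0.83. BMN gave 3 genes higher and 2 lower in KO cells (18.3%; 2 to 3) and 0 genes higher and 2 lower in WT cells (22.0%; 2 to 2). SESN2 was among the lower genes in both lines, at -0.48 and -0.50. Beyond the sum of the single drugs there were 1 gene higher and 1 lower in KO cells at day 16 (6.27%; 2 to 2), 1 gene higher and 0 lower in WT cells at day 16 (6.29%; 1 to 3) and 3 genes higher and 0 lower in WT cells at day 26 (12.5%; 1 to 5). PPP1R15A exceeded the sum at day 16 in both lines, by 0.73 and 0.76, without each library. The count of the combination against BMN in KO cells at day 16 was 3 without KO BMN day 16 replicate 2 or KO combination day 16 replicate 1. The count of the combination against DAC in WT cells at day 26 was 2 without WT combination day 26 replicate 2 or WT DAC day 26 replicate 1 and 3 without WT DAC day 26 replicate 2. The count for DAC between the days in WT cells was 2 without WT DAC day 5 replicate 1. The count for BMN between the days in KO cells was 2 without KO BMN day 26 replicate 1, KO BMN day 5 replicate 1 or KO BMN day 5 replicate 2 and 3 without KO BMN day 26 replicate 2. The count beyond the sum in WT cells at day 16 was 3 without WT control replicate 1. The count beyond the sum in WT cells at day 26 was 1 without WT combination day 26 replicate 2 and 5 without WT combination day 26 replicate 1.

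Compared directly with WT cells under the same drug and day, KO cells had more CHAC1 and PSAT1 mRNA with BMN at every day, as before treatment, and less of both at day 5 of the combination. With BMN, ATF3, ATF4, CHAC1 and PSAT1 were higher in KO cells at all 3 days, PSAT1 by 1.12, 1.25 and 1.34 and CHAC1 by 1.52, 1.44 and 1.75 on the log2 scale. All of these held without each library. The counts were 6 genes higher and 1 lower at day 5, 7 genes higher and 1 lower at day 16 and 7 genes higher and 1 lower at day 26, where 31.0%, 30.3% and 35.5% of all genes were called. With DAC, CHAC1 was higher in KO cells by 1.23 at day 5 and 0.75 at day 16, and differed by 0.23 at day 26, which did not pass (30.4%, 24.7% and 42.0% of all genes called). Resting on single libraries were the calls on CHAC1 (without WT DAC day 16 replicate 1; log2 0.68, adjusted p = 0.069). With DAC there were 6 genes higher and 1 lower at day 5, 5 genes higher and 3 lower at day 16 and 3 genes higher and 3 lower at day 26. The day 16 total of 8 was 3 without WT DAC day 16 replicate 1 and 5 without KO DAC day 16 replicate 1 or KO DAC day 16 replicate 2. The day 26 total of 6 was 3 without KO DAC day 26 replicate 2. At day 5 of the combination 6 genes were lower in KO cells than in WT cells and none was higher (36.6% of all genes called, 17.3% higher and 19.3% lower). CHAC1 had 4.59 and 6.53 CPM in KO cells and 10.3 and 12.4 CPM in WT cells (log2 -1.03 ± 0.20, adjusted p = 0.00011). PSAT1 had 49.7 and 48.7 CPM in KO cells and 89.2 and 80.7 CPM in WT cells (log2 -0.79 ± 0.08, adjusted p = 1.4e-09). TRIB3 had 53.03 and 57.8 CPM in KO cells and 87.8 and 88.8 CPM in WT cells (log2 -0.67 ± 0.11, adjusted p = 1.2e-05). In each of these 3 the KO libraries lay below the WT libraries, where untreated KO libraries had lain above untreated WT ones. INHBE was lower in KO cells by 2.38 (adjusted p = 1.7e-06; -2.99 without KO combination day 5 replicate 1). Leaving out 1 library ended the call on ATF4 (without WT combination day 5 replicate 1; log2 -0.22, adjusted p = 0.093) and DDIT3 (without KO combination day 5 replicate 1 or WT combination day 5 replicate 1; log2 -0.34 to -0.24, adjusted p = 0.16 to 0.31). ATF3 differed by 0.19 (interval -0.02 to 0.39) and PPP1R15A by 0.08 (interval -0.13 to 0.29), neither of which passed.

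At day 16 of the combination ATF4 was higher in KO cells than in WT cells (log2 0.54 ± 0.08, adjusted p = 3.5e-06), DDIT3 and PPP1R15A were lower, and 28.6% of all genes were called. Calls carried by single libraries were those on DDIT3 (without KO combination day 16 replicate 2; log2 -0.44, adjusted p = 0.056) and PPP1R15A (without WT combination day 16 replicate 1; log2 -0.33, adjusted p = 0.076). At day 26, 6 genes were higher and 3 lower in KO cells (36.9% of all genes called). ATF3 (0.87), ATF4 (0.75), TRIB3 (0.81), PSAT1 (0.65) and SESN2 (0.47) were higher, with calls that held without each library. DDIT3 had 6.93 and 7.85 CPM in KO cells and 13.9 and 12.6 CPM in WT cells (log2 -0.84 ± 0.14, adjusted p = 5.0e-06). Calls that did not hold without single libraries were those on CHAC1 (without KO combination day 26 replicate 2 or WT combination day 26 replicate 1; log2 0.34 to 0.54, adjusted p = 0.098 to 0.28), INHBE (without KO combination day 26 replicate 1 or WT combination day 26 replicate 1; log2 -1.08 to -0.97, adjusted p = 0.069 to 0.086) and PPP1R15A (without KO combination day 26 replicate 2 or WT combination day 26 replicate 2; log2 -0.34 to -0.21, adjusted p = 0.063 to 0.22). DDIT3 was called as lower in KO than in WT cells in all 10 matched comparisons, of which 2 kept the call without each library, by 0.35 to 0.84 on the log2 scale.

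**Figure D4:**
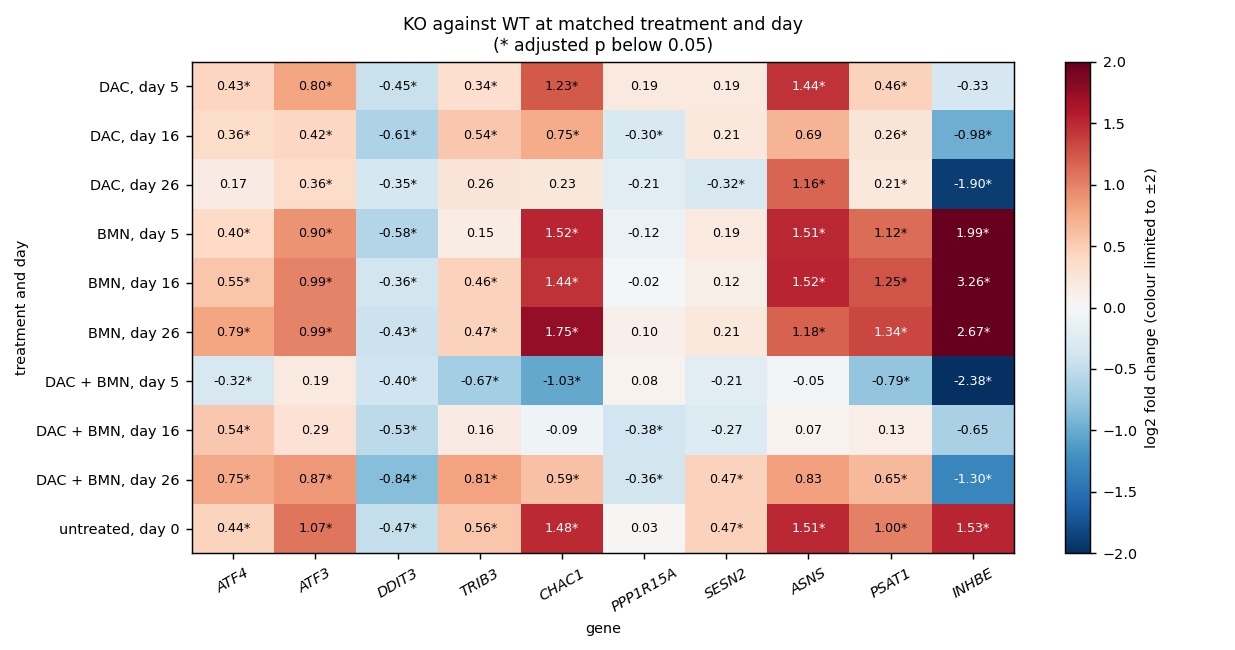
Log2 fold change of KO over WT cells under the same treatment and day, by gene (columns) and by treatment and day with the untreated comparison last (rows, DAC + BMN being the combination); colour is limited to ±2 and an asterisk marks an adjusted p below 0.05. CHAC1 is at 1.48 untreated and at -1.03 at day 5 of the combination, and DDIT3 is negative in every row.

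Averaged over the 3 days, the change from control was smaller or more negative in KO than in WT for 7 genes with the combination (14.2% of all genes called) and for 4 with DAC (8.82%), and in no gene was it larger. PSAT1 passed with both drugs, at -1.01 ± 0.09 for the combination and -0.70 ± 0.09 for DAC (adjusted p = 3.9e-10 and 1.4e-06), without each library. CHAC1 had -1.66 ± 0.24 for the combination (adjusted p = 5.9e-06), also without each library. Each of the other calls ended without WT control replicate 1 or without KO control replicate 2. Single treated libraries also ended 2 of them. These were ASNS for the combination (KO combination day 5 replicate 1, WT combination day 5 replicate 1 or WT combination day 26 replicate 2) and SESN2 for DAC (WT DAC day 26 replicate 2). With BMN none passed by edgeR (1.23% of all genes called), with 2 at an unadjusted p below 0.05 and 0 called by DESeq2, and 2 passed without WT control replicate 2.

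Other targets of ATF4 and CHOP were read from a list of 50 genes outside the 10, of which 49 were tested. In KO cells at day 5 of the combination 9 rose and 35 fell, with a median log2 change of -0.61 against 0.08 over all genes (all genes 27.1% higher and 22.2% lower). In WT cells 16 rose and 20 fell (median -0.08; all genes 21.2% higher and 18.2% lower). Against DAC alone at day 5, 3 were higher and 35 lower in KO cells (median -0.47; all genes 10.5% higher and 11.8% lower), and 9 and 10 in WT cells (median -0.05; all genes 6.77% higher and 5.52% lower). With single libraries left out, the WT numbers were 5 to 7 and 6 to 9. The difference between the lines was above 0 for 2 and below 0 for 28 (all genes 2.17% higher and 4.68% lower). Among those that fell in KO cells, DDIT4, an inhibitor of mTORC1, had 181 ± 0.860 CPM with the combination and 1023 ± 40.3 CPM in KO control (mean ± SD, n = 2, log2 -2.50 ± 0.08). SLC6A9, a glycine transporter, had 3.05 ± 0.766 CPM with the combination and 11.4 ± 0.515 CPM in KO control (log2 -1.89 ± 0.20). The cystine transporter SLC7A11 had 48.7 ± 1.48 CPM with the combination and 134 ± 11.5 CPM with DAC in KO cells (log2 -1.46 ± 0.11). Against the list's direction, the secreted stress hormone GDF15, also a p53 target, had 174 ± 2.09 CPM in KO cells given the combination and 4.20 ± 0.602 CPM in KO control (log2 5.37 ± 0.17). In WT cells GDF15 had 109.9 ± 1.44 CPM with the combination and 6.38 ± 2.18 CPM in control (log2 4.11 ± 0.16). CEBPB, a partner of ATF4, rose in KO cells by 0.75 ± 0.15. The genes named here and below from the lists passed the test in the comparison given, unless the text says otherwise.

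At day 26 in KO cells 33 genes of the list were higher and 2 lower with the combination than with DAC (median 0.36; 23.9% of all genes called). ADM2, a secreted peptide, had 10.4 ± 0.757 CPM with the combination and 3.77 ± 0.160 CPM with DAC (log2 1.46 ± 0.19), and GPT2, an alanine aminotransferase, had 68.6 ± 2.97 and 38.7 ± 0.251 CPM (log2 0.83 ± 0.09). In KO minus WT at day 26, that change was above 0 for 26 genes and below 0 for 4 (21.1% of all genes called). Before treatment 27 of the 49 were higher and 7 lower in KO than in WT cells (median 0.32; all genes 13.4% higher and 13.9% lower). STC2, a secreted glycoprotein, had 169 ± 16.6 CPM in untreated KO cells and 30.3 ± 2.74 CPM in untreated WT cells (log2 2.48 ± 0.08). The mitochondrial folate enzyme ALDH1L2 went the other way, with 0.137 ± 0.0406 CPM in KO cells and 6.96 ± 1.06 CPM in WT cells.

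PHGDH, which encodes the enzyme just upstream of PSAT1 in serine synthesis, is singled out here after its values were seen. In WT cells it had 1.35 ± 0.00112 CPM at day 5 of DAC, 2.53 ± 0.155 CPM at day 16 and 2.35 ± 0.0921 CPM at day 26, against 0.0252 ± 0.0356 CPM in WT control (adjusted p = 5.0e-05, 7.0e-07 and 1.5e-06). With the combination WT cells had 1.38 ± 0.661 CPM, 1.85 ± 0.342 CPM and 3.31 ± 1.64 CPM at those days. In KO cells it had 0.621 ± 0.102 CPM, 0.716 ± 0.0741 CPM and 0.317 ± 0.303 CPM at days 5, 16 and 26 of DAC, and 0 counts in both KO control libraries, where 3 counts would have been 0.162 and 0.165 CPM. With BMN alone PHGDH had at most 0.0514 CPM on average in either line. PHGDH was thus counted mainly in libraries given DAC, and it remained a gene of low count.

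Upstream of ATF4, 20 genes for the eIF2 kinases, eIF2 and its regulators were counted in the same way. In KO cells at day 5 of the combination 2 rose and 7 fell (median -0.01; all genes 27.1% higher and 22.2% lower), and 2 rose and 7 fell in WT cells (median -0.13; all genes 21.2% higher and 18.2% lower). With single libraries left out, 4 to 7 fell in KO cells and 3 to 6 in WT cells. Untreated KO cells differed from WT cells by -0.33 in the heme-regulated kinase EIF2AK1, 0.39 in the endoplasmic reticulum kinase EIF2AK3 (PERK) and 0.34 in the amino acid sensor EIF2AK4 (GCN2), with adjusted p = 5.6e-06, 0.00011 and 3.5e-05. EIF2AK2 (PKR), which senses double-stranded RNA, differed by 0.12 (adjusted p = 0.41) and did not pass. EIF2AK2 rose with DAC in both lines. It had 595 ± 14.9 CPM in KO cells at day 26 of DAC and 152 ± 4.43 CPM in KO control (log2 1.97, adjusted p = 2.2e-17). In WT cells it had 436 ± 70.0 CPM at day 26 of DAC and 139 ± 27.9 CPM in WT control (log2 1.65, adjusted p = 2.9e-15). At day 5 of DAC its rise was 0.31 in KO cells and 0.45 in WT cells, and at day 5 of the combination 0.52 and 1.00. EIF2AK1 fell at day 5 of the combination, by 0.78 in KO cells and by 0.59 in WT cells (adjusted p = 2.0e-14 and 1.9e-11). The responses of the kinases to DAC, averaged over days, differed between KO and WT by -0.20 for EIF2AK1 (adjusted p = 0.026), 0.28 for EIF2AK3 (adjusted p = 0.032), 0.11 for EIF2AK2 and 0.04 for EIF2AK4, the last 2 not passing.

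Neighbouring programmes were counted beside the 10 genes. Beside the counts for day 5 of the combination stand, for all genes, 27.1% called higher and 22.2% lower in KO cells, and 21.2% and 18.2% in WT cells. Of 20 genes of the XBP1 and ATF6 arms of the unfolded protein response, 11 rose and 3 fell in KO cells at day 5 of the combination (median 0.19), with the sensor ERN1 up by 1.30 ± 0.11 and XBP1 itself down (-0.65 ± 0.07). In WT cells 4 rose and 2 fell (median 0.13). With single libraries left out, 6 to 11 of them rose in KO cells and 4 to 7 in WT cells. Of 19 immediate early and AP-1 genes tested, 8 rose and 5 fell in KO cells (median 0.20), and 14 rose and 1 fell in WT cells (median 1.03). KLF4 had 70.2 ± 0.838 CPM in WT cells given the combination and 5.29 ± 0.428 CPM in WT control (log2 3.73 ± 0.15). Of 15 p53 target genes, 13 rose and 0 fell in KO cells (median 1.04) and 12 rose and 0 fell in WT cells (median 0.85). Against DAC alone 14 were higher in KO cells and 11 in WT cells, none lower (10.5% and 6.77% of all genes called higher). The cell cycle inhibitor CDKN1A had 445 ± 23.6 CPM with the combination and 132 ± 8.75 CPM with DAC in KO cells (log2 1.75 ± 0.08). WT cells had 293 ± 23.2 CPM with the combination and 89.7 ± 1.66 CPM with DAC (log2 1.71 ± 0.09). ATF3 and SESN2 belong to the known p53 targets as well, and the part of p53 in their values was not tested.

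As a description of how the 10 genes ranged together, Pearson correlations of log2 levels were taken over the 20 group means, which share lines, controls and scaling. Over all 45 pairs the median r was 0.206. ASNS and PSAT1 had r = 0.83, ATF4 and PSAT1 0.79, and ATF4 and TRIB3 0.77, while DDIT3 and ASNS had -0.64. Within the lines these values differed. For ATF4 and PSAT1 the value was 0.88 over the 10 KO groups and -0.47 over the 10 WT groups. For DDIT3 and ASNS it was -0.46 in KO and 0.53 in WT groups, so the sign changed. ASNS and PSAT1 had 0.83 in KO and 0.38 in WT groups, and ATF4 and TRIB3 0.79 and 0.72. Among 11554 other genes compared, those most like the mean standardised level of the 10 were PRICKLE3 (r = 0.92), DCLRE1B (0.90), PLP2 (0.86), CYREN (0.85) and MGLL (0.85). Of the 10 themselves, CHAC1 lay closest to that mean (0.94) and DDIT3 furthest from it (-0.32).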

How the data were processed

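Total RNA libraries of 40 samples (KAPA RNA HyperPrep kit, per the labels' protocols) were read as 1 deposited table of raw gene counts. Per the file headers, the authors counted read pairs over exons with featureCounts 1.5.0-p1 against Ensembl 104 (GRCh38), on 1 strand (setting 1), requiring a mapping quality of 20, and leaving out secondary alignments and marked duplicates. The submitters' processing notes also name FastQC, Trimmomatic and Partek, and alignment names in the header contain STAR. A fragment in exons of overlapping genes on 1 strand was assigned to neither, which lowers ASNS. The table holds 40 of the 76 alignments that its header names, and all 40 were matched to samples by their labels. The labels name the PARP inhibitor BMN673, and in 1 place BMN763.

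Every row of the 60664 named a gene. All 40 libraries entered 1 fit of group means in edgeR 4.0.16 (R 4.3.3) with TMM scaling, after filterByExpr (count minimum 10, total minimum 15), with quasi-likelihood tests and Benjamini-Hochberg adjustment over 22527 genes within each contrast, called below 0.05. SE is the log2 fold change divided by the root of F, and 95% intervals are normal intervals from that SE. CPM are counts per 1000000 of the TMM-scaled total, and depth was 17833960 to 22631101 fragments. Of 64 contrasts, 55 were planned and 9 were added after values were seen. The script was tested on simulated data. Same-numbered libraries showed no strong shared deviation (r from -0.17 to 0.24 over 190 pairs of groups). That check cannot exclude that replicate numbers pair samples, and the main fit did not pair them. No 2 libraries agreed within sampling noise.

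The 10 genes and all lists were chosen with earlier results of these data known. From each list up to 4 genes per comparison could be named, the 2 largest rises and 2 largest falls among called genes that reached 5 CPM on average in 1 group and whose libraries did not overlap, and the 4 eIF2 kinases were always named for untreated cells and DAC. PHGDH was named outside that rule. Alternatives were DESeq2 1.42.0, RLE scaling, no filter on low counts, only a contrast's own libraries, a replicate block, a term for alignment names and leaving out each library. Fits without 1 library kept the tested genes and the negative binomial dispersion trend of the full fit. Scaling and quasi-likelihood spread were estimated anew, and the group concerned was left with 1 library and no spread of its own. Promoter sequences are from RefSeq.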

Additional observations from a re-analysis of the deposited data

Results flagged for a closer look

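Several changes differed between the lines in a test of the difference itself, given here as KO minus WT on the log2 scale (edgeR's quasi-likelihood test, adjusted p below 0.05). For the response to DAC averaged over days 5, 16 and 26, the difference was -0.54 for ATF3, -0.70 for PSAT1, -0.44 for SESN2 and -2.60 for INHBE. For the averaged response to the combination it was -0.62 for ATF3, -1.66 for CHAC1, -0.46 for TRIB3, -1.22 for ASNS, -1.01 for PSAT1, -0.47 for SESN2 and -2.98 for INHBE. Of these, PSAT1 with both drugs and CHAC1 with the combination held without each library, and the rest did not.

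For the combination against DAC alone at day 5, the difference between the lines was -0.61 for ATF3, -0.75 for ATF4, -2.26 for CHAC1, -1.01 for TRIB3, -1.24 for PSAT1 and -2.05 for INHBE. At day 26 it was 0.51 for ATF3, 0.58 for ATF4, 0.55 for TRIB3, 0.44 for PSAT1 and 0.79 for SESN2. ATF3, ATF4, TRIB3 and PSAT1 thus appear at both days with opposite signs. ATF4 and PSAT1 held at both days without each library, TRIB3 at day 5 alone and ATF3 at neither day.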

How the results depend on the processing

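With all libraries 325 results of the 10 genes passed over 64 contrasts. Of these, 204 passed without every single library of their contrast and 201 also under every other setting, and none changed sign in any setting tried. Leaving out 1 library ended 274 calls and added 43, summed over all such fits, while 2963 results stayed the same. These totals cannot be set beside those of the other settings, which each gave a single result per gene and contrast. The averaged responses in KO minus WT gave 11 calls with all libraries and between 4 and 15 when 1 library was left out, lowest without WT control replicate 1 and with 5 without KO control replicate 2. Of 640 results, DESeq2 ended 17 calls and added 9, no filter on low counts ended 24 and added 20, RLE scaling ended 3 and added 7, and a term for alignment names, added after the data were seen, ended 7 and added 3. Fitting only a contrast's own libraries ended 48 and added 37, and calls against the day 0 control were then 73 where the full fit gave 94. Of the calls lost against that control, those in KO cells were DDIT3 at day 5 of DAC and at day 16 of the combination. The rest were in WT cells, whose control replicates stood furthest apart. Such a fit has fewer libraries to estimate the spread and takes it from those alone. The reason for the losses was not tested. With the replicate number as a block, 1 call was lost and 5 were added, and calls against the control were 93, calls of KO against WT under treatment 64 (62 without the block). The same-number check showed no strong shared deviation and cannot exclude pairing by number. The median correlation between the 10 genes was 0.206 over group means, 0.222 from replicate 1 alone and 0.153 from replicate 2 alone, and the cause was not tested. ASNS and INHBE, with the fewest counts, moved most when a library was left out. How far counting error or other spread between libraries accounts for this was not tested.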
